A study of Mus musculus with 18 samples.

Results

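The genes described here are those of vesicle release: the synaptotagmins, syntaxins, VAMPs, SNAPs, syntaxin-binding proteins, synapsins, Rab3 GTPases, complexins and SV2 proteins. These families were chosen with earlier results of these data known, but no value entered the match of symbols. By symbol (Syt, Stx, Vamp, Snap, Stxbp, Syn1 to Syn3, Rab3a to Rab3d, Cplx, Sv2a to Sv2c), 57 of the table's 15730 genes matched. These were 15 synaptotagmins, 14 syntaxins, 6 VAMPs, 5 SNAPs, 5 syntaxin-binding proteins, 4 Rab3 GTPases, 3 synapsins, 3 SV2 proteins and 2 complexins. One match rests on the name alone, since Snap91 encodes the clathrin adaptor AP180 and no SNARE. All 57 passed the filter on low counts, as did every gene of the table. Of the 57, 55 had at least 10 counts in every sample, and Syt14 and Syt17 did not.

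RNA was sequenced from dorsal root ganglia (DRG), the clusters of sensory neuron cell bodies and their glia beside the spinal cord, taken at the levels that feed the sciatic nerve from C57BL/6 mice of 6 to 8 weeks. Each of the 18 samples pooled the ganglia of 2 mice collected 24 hours after surgery, and each of 6 groups had 3 samples. In SNA_Saline the sciatic nerve, the peripheral branch, was injured with saline applied. In SNA_NAC the same injury was made with 30 mM of the antioxidant N-acetyl-cysteine (NAC). Sham_Saline mice had sham surgery with saline, and Sham_H2O2 mice had sham surgery with 13 mM hydrogen peroxide. DCA mice had a dorsal column injury, which damages the central branch in the spinal cord, and LAM mice had the laminectomy alone, the opening of the spine through which such an injury is made. The whole ganglion was sampled, so values from neurons, glia, vessels and immune cells are pooled, and not every neuron in these ganglia sends an axon into the injured tract.

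Vesicles fuse when a VAMP on the vesicle zips together with a syntaxin and a SNAP on the target membrane. Those synaptotagmins that bind calcium can trigger that step, complexins regulate it, and some syntaxin-binding proteins prepare the syntaxin. Rab3 brings the vesicle to its site, and synapsins and SV2 proteins belong to the vesicle itself. Sensory neurons use this machinery at their central terminals and also to release peptides from dense-core vesicles, and other members of the same families serve endosomes, the Golgi and secretion in glia and immune cells.

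Sequencing depth varied between libraries, with gene-level totals of 6472476 to 42435331 counts, a 6.56-fold range, and a typical biological variation between replicates of 17.4%. Libraries also differed in how level related to GC content. The slope of a library's log2 level, relative to the mean over libraries, on the GC share of the transcript ran from -0.219 in Sham_H2O2 replicate 3 to 0.431 in Sham_Saline replicate 2, in log2 units per SD of GC share. That second library also held the highest summed levels of sensory neuron markers (12516 CPM, counts scaled to library size, over 10 markers; Sham_Saline range 7635 to 12516, SNA_Saline 6595 to 8341) and of skeletal muscle markers (1235 CPM over 7 markers; Sham_Saline 7.06 to 1235, SNA_Saline 25.2 to 270). In that library the neuron markers went different ways. Uchl1 (2966 CPM) and Tubb3 (2692 CPM) were the highest of the 18 samples, while Pou4f1 (164 CPM) was the lowest. The part of these marker levels in the results below was not tested beyond the values given. The labelled injury was visible in Atf3, a transcription factor induced by axon injury, at 62.6 ± 8.81 CPM in Sham_Saline and 444 ± 21.5 CPM in SNA_Saline (SD, n = 3 each).

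The families span nearly the whole range of expression in the ganglion. On the FPKM scale, which corrects for transcript length and library size, over the 6 samples of Sham_Saline and LAM, the complexin Cplx1 was highest at 419 ± 76.8 FPKM (SD, n = 6), above 99.5% of all genes. Snap25, the neuronal SNAP, followed at 341 ± 50.3, Syt11, a synaptotagmin that does not bind calcium, at 283 ± 10.8, and Vamp2, the classical synaptic vesicle SNARE, at 154 ± 13.6. The ranges of Cplx1 and Snap25 met within their spread.

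Below these came Syt4 at 130 ± 17.2 FPKM and Rab3a at 111 ± 32.4, which did not differ beyond their spread. Next stood the synapsin Syn1 at 95.6 ± 8.01 FPKM and the endosomal syntaxins Stx7 and Stx12 at 95.1 ± 9.99 and 94.6 ± 12.5, again not separated. The best expressed SV2 protein was Sv2b at 58.1 ± 10.1 FPKM. Among the calcium sensors of fast release, Syt2 stood at 37.1 ± 8.80 FPKM and Syt1 at 27.9 ± 4.25, so Syt4 and Syt11 exceeded both. The neuronal syntaxin Stx1a stood at 7.81 ± 4.39 FPKM. At the bottom Syt17 had 0.422 ± 0.145 FPKM, above 7.84% of all genes.

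**Figure D1:**
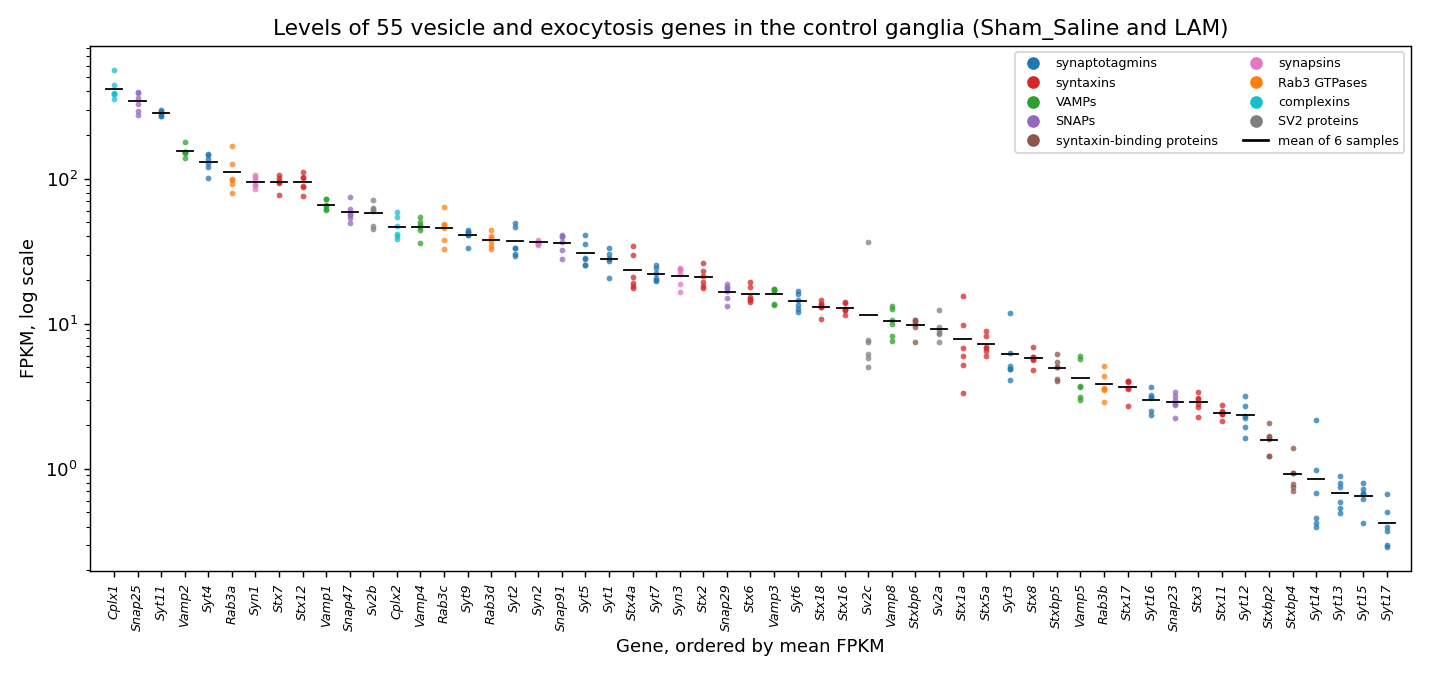
Level of 55 of the 57 genes in the 6 control samples (3 Sham_Saline, 3 LAM), in FPKM on a log axis, by family, with a line at the mean. Levels run from 0.422 FPKM for Syt17 to 419 FPKM for Cplx1.

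After sciatic nerve injury, 3 of the 57 genes passed the test: Stx11 and Syt4 rose and Syt7 fell. In the same comparison 2.73% of all genes passed (2.16% higher, 0.572% lower). The other members did not pass, with fitted log2 differences from -1.12 (Syt17) to 0.38 (Vamp4). All calls are from edgeR's quasi-likelihood test over the 18 samples, with Benjamini-Hochberg adjustment over the 15730 genes and a threshold of 0.05. Without Sham_Saline replicate 1, 7 of the 57 passed, with 16.2% of all genes: the same 3, Stxbp5 (0.45) and Snap29 (0.35) higher, and Syt3 (-1.24) and Rab3a (-0.78) lower. When only the 6 samples of the 2 groups set the spread, 0 of 57 passed, with 0.422% of all genes (Stx11 0.93, adjusted p = 0.0989; Syt4 0.88, 0.121; Syt7 -0.51, 0.243).

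Stx11 is an unusual syntaxin without a membrane-spanning anchor, best known for granule release by killer lymphocytes. It had 5.72, 6.02 and 5.77 CPM in Sham_Saline replicates 1 to 3, and 11.7, 11.9 and 9.98 CPM in SNA_Saline. The groups did not overlap, and the lowest injured sample lay well above the highest sham sample. The rise was 1.92-fold (log2 fold change 0.94, SE 0.14, 95% interval 0.65 to 1.23, edgeR adjusted p = 0.000713). Within the 3 sequencing lanes that the labels give, each holding 1 sample of each group, the difference was 1.02, 0.97 and 0.78. In level Stx11 is a minor syntaxin, at 2.43 ± 0.199 FPKM in the control samples, and its raw counts ran from 44 to 448 per library. In whole ganglia a change in the number of cells of a type and a change in RNA per cell cannot be told apart. Summed macrophage markers (all 5 of 5 detected) were 39.8 to 47.8 CPM in Sham_Saline and 41.6 to 45.8 in SNA_Saline. Csf1r, the highest of the 5, weighs most in that sum, and the markers went different ways. After injury 3 were higher and 2 lower, with log2 differences from -0.21 to 0.55. Of these, 0 separated the groups, 0 were called by edgeR and 1, a higher one, had an unadjusted p under 0.05. Summed neutrophil markers (2 of 2) were 218 to 391 CPM in Sham_Saline and 238 to 371 in SNA_Saline. No lymphocyte markers were listed, and the part of any of these cells in the Stx11 rise was not tested.

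Syt4 is a synaptotagmin with weak calcium binding that sits on dense-core vesicles and is induced by activity in neurons. Its level was 578, 400 and 466 CPM in Sham_Saline and 947, 975 and 759 CPM in SNA_Saline, with no overlap. It rose 1.86-fold (log2 fold change 0.89, SE 0.16, interval 0.55 to 1.23, edgeR adjusted p = 0.00479). Syt4 was already an abundant transcript before injury, the fifth of the 57 by FPKM, and within lanes the difference was 0.71, 1.29 and 0.70.

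Syt7, a slow calcium sensor of high affinity with roles in facilitation and in lysosome exocytosis, went the other way. Sham_Saline samples had 176, 170 and 152 CPM and SNA_Saline samples 108, 115 and 129. Every injured sample lay below every sham sample, though replicate 3 of each group came close (lane differences -0.70, -0.56 and -0.24). The gene was 1.42-fold lower (log2 fold change -0.50, SE 0.11, interval -0.73 to -0.27, edgeR adjusted p = 0.0183). This call was less firm than the other two: without Sham_Saline replicate 2 the adjusted p was 0.0684, without SNA_Saline replicate 1 it was 0.135 and without SNA_Saline replicate 2 it was 0.0803, while Stx11 and Syt4 passed in all 6 fits that leave out 1 sample.

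**Figure D2:**
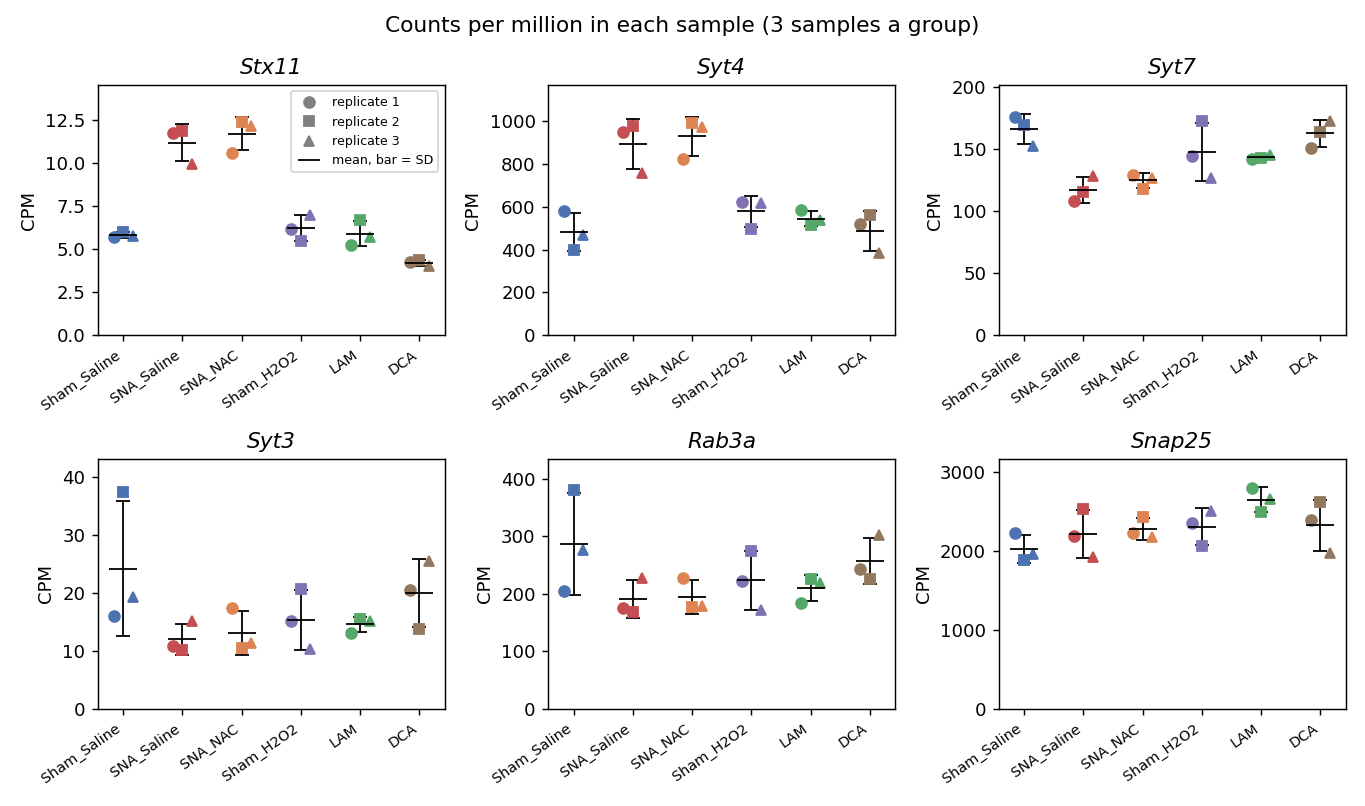
Level in CPM of 6 genes (Stx11, Syt4, Syt7, Syt3, Rab3a, Snap25) in each of the 18 samples by group, with a marker for each replicate, the mean and bars of 1 SD. Stx11 and Syt4 are high in both SNA groups, and the Sham_Saline samples of Syt3 and Rab3a are spread widely.

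Promoter windows from RefSeq (GRCm38.p6), the 250 bases before the first start site listed, were found for 45 of the 57 genes, and 3 are shown. Stx11 is the gene with the smallest adjusted p after sciatic injury, Rab3a the member of its family with the smallest p, and Syn1 a textbook target of the neuronal repressor REST, whose element is called RE1. Capitals mark letters of the cyclic AMP response element (CRE, TGACGTCA, with the shorter form TGACG, which the full form contains) or the left part of RE1 (TTCAGCACC), on either strand. The stretches are 150 bases each: Stx11 at chr10:12964260-12964409 (minus strand), Syn1 at chrX:20921019-20921168 (minus strand) and Rab3a at chr8:70754528-70754677 (plus strand).
Stx11: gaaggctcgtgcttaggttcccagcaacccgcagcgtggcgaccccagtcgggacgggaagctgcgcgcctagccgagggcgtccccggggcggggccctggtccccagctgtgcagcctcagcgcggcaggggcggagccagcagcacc
Syn1: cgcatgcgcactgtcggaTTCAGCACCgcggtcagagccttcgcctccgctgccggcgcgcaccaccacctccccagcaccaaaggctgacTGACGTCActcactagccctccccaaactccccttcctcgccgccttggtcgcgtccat
Rab3a: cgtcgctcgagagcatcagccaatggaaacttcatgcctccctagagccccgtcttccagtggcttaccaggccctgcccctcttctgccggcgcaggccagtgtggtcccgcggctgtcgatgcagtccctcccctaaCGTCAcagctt

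In Syn1 the full CRE letters begin 159 bases before the start and the RE1 letters 232 bases before it. In Rab3a the short form is read on the opposite strand, so the printed letters are its reverse complement. Over the matched members, TGACGTCA was in 1 window (2.22%, against 1.62% of all 27025 genes), TGACG in 11 (24.4% against 17.9%) and TTCAGCACC in 1 (2.22% against 0.285%). The right part of RE1, GGACAG, was in 7 windows (15.6% against 18.7%), and TGANTCA, the element of the injury-induced AP-1 factors, in 0 (against 6.87%). The Stx11 window held none of the first 3 nor the AP-1 letters. These are matches of letters in a window and no evidence of binding.

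In the mouse genome (GRCm38, GENCODE M21) Stx11 lies on the minus strand at chr10:12938209-12964298, Syt4 on the minus strand at chr18:31437808-31447406 and Syt7 on the plus strand at chr19:10389090-10453180. No other annotated exon overlaps those of Stx11. Exons of Syt4 and Syt7 are each overlapped on the opposite strand by 1 annotated gene (Gm26658 and Gm26859). In all 16 of the 57 members have such an overlap, and the strand setting of the counting is not given in the sources used here, so reads of such partners may be included.

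By family, the synaptotagmins held both directions. Of the 15, 7 had a higher and 8 a lower fitted level after sciatic injury, with 1 called each way, and the median log2 difference was -0.01, against -0.01 for the 57 genes and -0.03 for all genes. Over the 57, 27 were higher and 30 lower; 14 did not overlap between groups (7 higher, 7 lower), 24.6% against 19.1% of all genes, and 13 had an unadjusted p under 0.05, 22.8% against 22.5% of all genes. Both shares were near those of all genes.

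Syt3, a high-affinity calcium sensor, had 15.97, 37.4 and 19.3 CPM in Sham_Saline and 10.8, 10.2 and 15.1 in SNA_Saline. Groups did not overlap, but the margin in replicate 3 against replicate 1 was small and the sham samples were far apart. The log2 difference was -1.01 (SE 0.32, edgeR adjusted p = 0.107). DESeq2 called Syt3 here, at -1.03 (adjusted p = 0.0369). The fast-release sensors differed less. Syt1 had 278, 173 and 228 CPM against 231, 240 and 219 after injury (log2 difference 0.02, interval -0.28 to 0.33). Syt2 had 342, 322 and 205 CPM in sham and 190, 195 and 201 after injury (log2 difference -0.57, SE 0.21, edgeR adjusted p = 0.157), and there sham replicate 3 lay beside the injured samples. Syt11 was level at 1512, 1560 and 1384 CPM against 1465, 1497 and 1497 (interval -0.21 to 0.21). Among the weakly expressed members, Syt17 had 0.810, 1.09 and 0.475 CPM in sham and 0.132, 0.649 and 0.428 after injury, and Syt12 had 12.8, 17.8 and 14.9 against 17.6, 14.8 and 17.3.

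Apart from Stx11, none of the 14 syntaxins passed, against 2.73% of all genes. Of the 14, 8 were higher and 6 lower, with a median of 0.04. The endosomal pair came nearest. Stx12 had 279, 245 and 280 CPM in sham and 349, 373 and 308 after injury (log2 difference 0.36, SE 0.12, edgeR adjusted p = 0.121), and Stx7 had 236, 195 and 231 against 270, 291 and 245 (0.29, adjusted p = 0.189). Neither gene's groups overlapped. Stx1a, a plasma membrane syntaxin of the synapse, gave a wider interval, with 18.1, 42.1 and 25.7 CPM against 18.01, 13.0 and 23.7 (log2 difference -0.65, interval -1.40 to 0.11). It was Sham_Saline replicate 2, the library with the highest GC slope and the highest summed neuron and muscle markers, that stood far above the rest.

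Grouped by symbol, the 5 SNAPs include Snap91, which encodes no SNARE. These 5 (4 higher, 1 lower, median 0.19) and the 6 VAMPs (3 and 3, median 0.04) had 0 calls by edgeR (2.73% of all genes). At an unadjusted p under 0.05 there were 0 and 2 (22.5% of all genes). Snap25 had 2225, 1891 and 1959 CPM in sham and 2189, 2532 and 1928 after injury, and the groups overlapped (log2 difference 0.13, SE 0.13, interval -0.14 to 0.40). Snap23, its counterpart outside neurons, had 11.7, 9.73 and 11.7 CPM against 14.1, 14.3 and 12.2, without overlap (0.29, edgeR adjusted p = 0.299). Of the vesicle SNAREs, Vamp2 ranged from 526 to 673 CPM in sham and 598 to 663 after injury, and Vamp1 from 521 to 638 and 523 to 551. The VAMPs with the smallest p were Vamp4 and Vamp3. Vamp4, of the Golgi, had 203, 167 and 208 CPM against 261, 271 and 217 (0.38, adjusted p = 0.155), and Vamp3, of recycling endosomes, 38.8, 39.8 and 48.3 against 57.7, 55.6 and 49.8 (0.36, adjusted p = 0.159).

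Neither complexin passed, and both had lower fitted levels: Cplx2 had 267, 291 and 229 CPM in sham and 182, 198 and 202 after injury, with no overlap (log2 difference -0.44, SE 0.15, edgeR adjusted p = 0.125), and Cplx1 had 851, 1246 and 946 against 791, 786 and 911 (-0.29, interval -0.64 to 0.06; -0.03 with the GC and length offsets described below). Rab3a, the main Rab of synaptic vesicles, had 205, 380 and 276 CPM against 176, 169 and 228. Its sham values spread more than its groups differed, with replicate 2 highest, and the groups overlapped (log2 difference -0.59, SE 0.21, edgeR adjusted p = 0.142). It passed with the offsets (adjusted p = 0.0230) and without Sham_Saline replicate 1 (adjusted p = 0.0267). Of the 4 Rab3 genes, 3 were lower and 1 higher. The 5 syntaxin-binding proteins split into 2 higher and 3 lower.

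Of the proteins of the vesicle itself, none of the 3 synapsins and 3 SV2 proteins was called by edgeR, against 2.73% of all genes. For so few genes this is near that share. Syn1 had 329, 284 and 294 CPM in sham and 318, 332 and 301 after injury (log2 difference 0.07, interval -0.15 to 0.28), and Syn2 202 to 214 against 191 to 196 (-0.09, interval -0.33 to 0.14). Sv2a, the target of the drug levetiracetam, had 41.7, 58.5 and 43.4 CPM against 34.3, 31.8 and 40.0 (-0.44, SE 0.17, edgeR adjusted p = 0.176). Sv2b had 403, 270 and 254 against 285, 307 and 247 (-0.14, interval -0.47 to 0.18). Sv2c, named here after its values were seen, had 163 CPM in Sham_Saline replicate 1 against 34.9 and 22.1 in the other two, so its fitted difference of -0.83 rests on that library and ran from -1.26 to 0.53 over the fits that leave out 1 sample. The summed level of all 57 genes was 11403 to 12658 CPM in Sham_Saline and 11749 to 12724 in SNA_Saline.

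**Figure D3:**
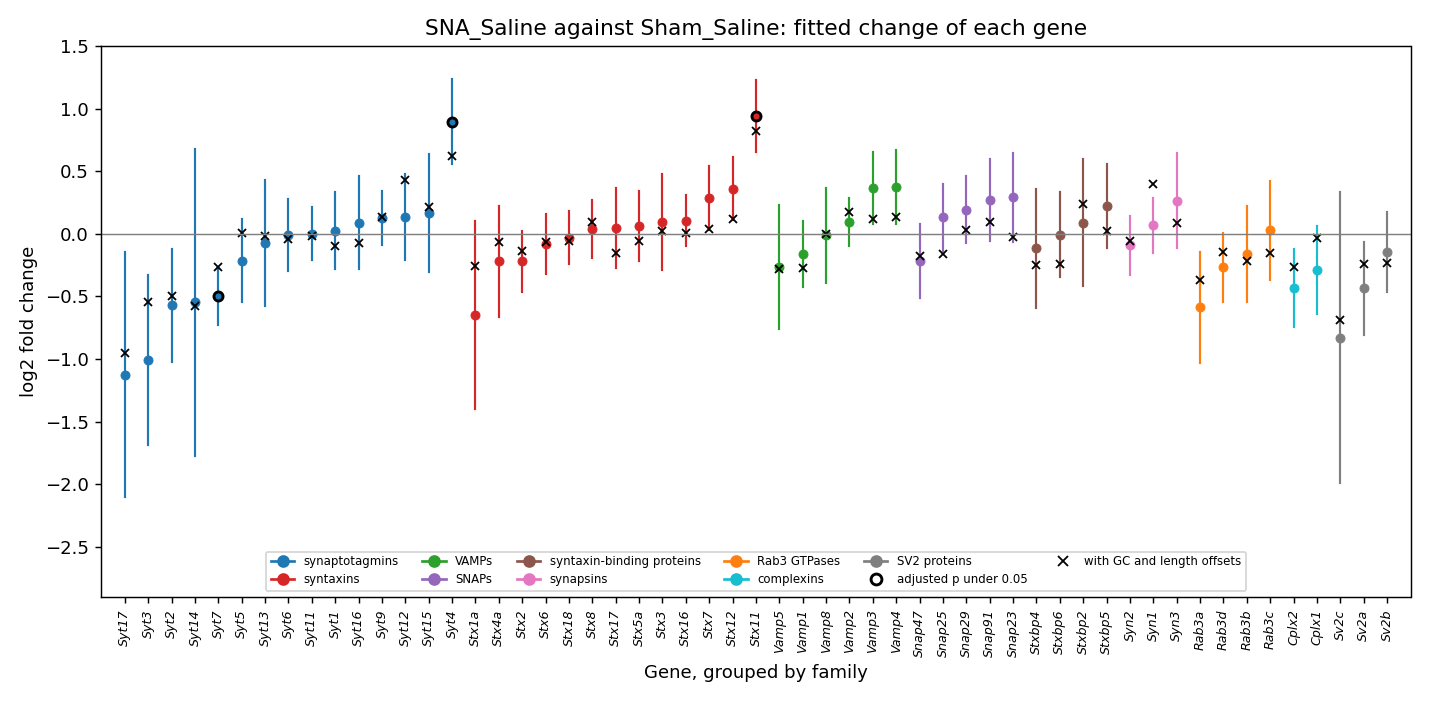
Fitted log2 fold change of 55 of the 57 genes, SNA_Saline against Sham_Saline, by family, with its 95% interval. Black rings mark the 3 genes past the threshold (Stx11, Syt4, Syt7), and crosses give the value when GC share and transcript length are modelled.

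Part of the spread among the members moved with base composition. Across the 57 genes, Pearson's r between the log2 difference after sciatic injury and the GC share of the transcript was -0.56, and it was -0.53 across the 15648 genes with a GC value; genes are not independent replicates, and these are descriptions. The GC-rich members Syt3 (59.2% GC), Stx1a (57.9%), Cplx1 (56.0%) and Rab3a (55.01%) lay on the lower side, and the AT-rich Syt4 (40.7%) and Snap25 (38.7%) on the higher side. Not every member followed: the GC-rich Syn1 (57.9%) and Syt12 (56.1%) did not lie on the lower side. Offsets for GC share and length take out each library's trend on both over all genes, so an r near 0 is then built in. With them in the same edgeR model, r over the members was -0.13, and 6 of the 57 passed, 3 higher and 3 lower, against 7.43% of all genes.

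Those 6 included the 3 genes already called, at smaller sizes: Stx11 at 0.82 (adjusted p = 0.000355), Syt4 at 0.62 (1.44e-05) and Syt7 at -0.27 (0.00774). The other 3 were Syt12, a synaptotagmin that does not bind calcium, at 0.43 (0.0194), Rab3a at -0.37 (0.0230) and Syt3 at -0.55 (0.0308). Other differences shrank towards 0, that of Stx12 from 0.36 to 0.12, of Vamp4 from 0.38 to 0.13 and of Cplx1 from -0.29 to -0.03, while Syn1, at 57.9% GC, moved from 0.07 to 0.40 (adjusted p = 0.301). The direction of Snap25 turned to -0.16 and that of Snap23 to -0.02, and neither was called in either fit.

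**Figure D4:**
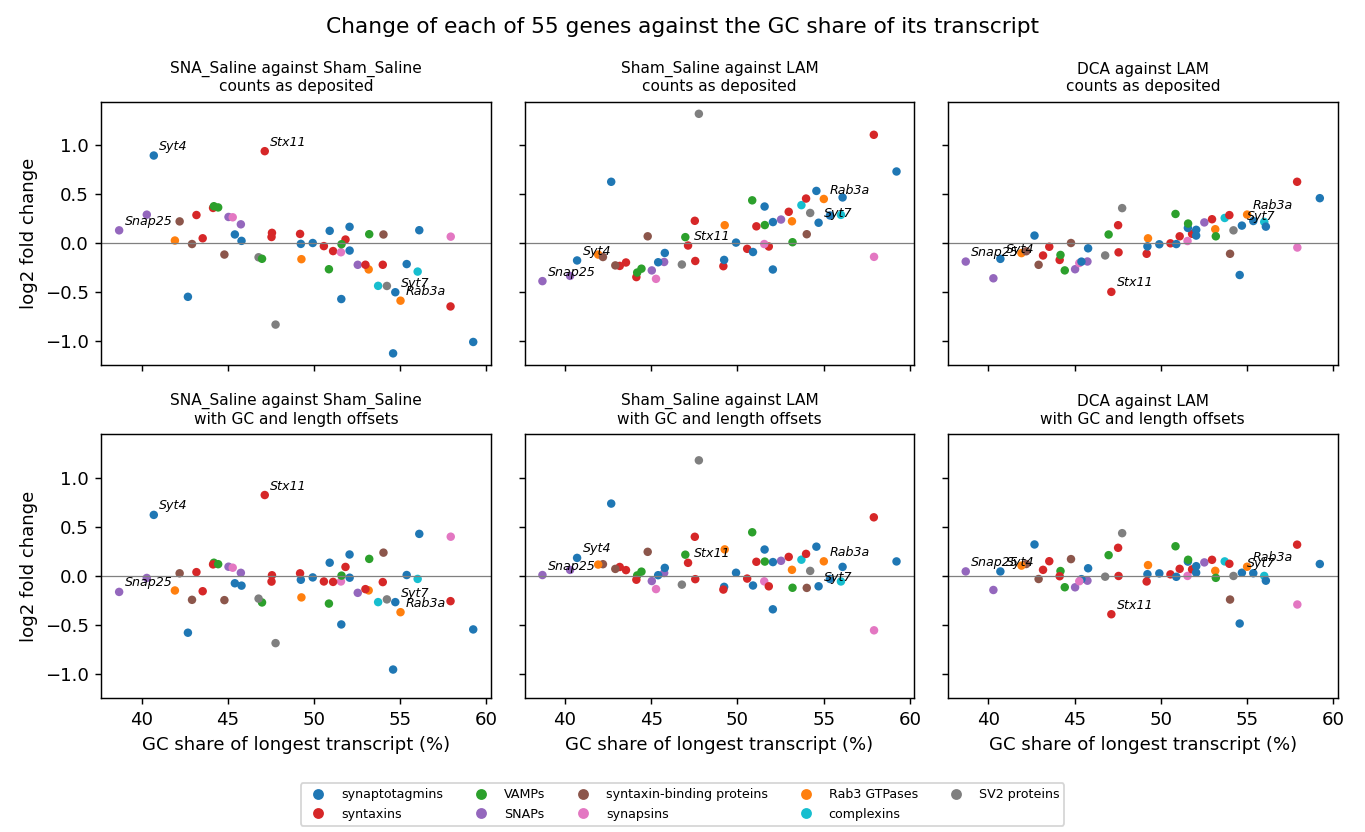
Log2 fold change of 55 of the 57 genes against the GC share of its longest transcript, in 3 comparisons, from the counts as deposited (top) and with GC and length offsets (bottom). The slope visible in each top panel (r = -0.56, 0.59 and 0.66) is near 0 below (r = -0.13, -0.10 and -0.05; r is over all 57), since the offsets take out each library's GC trend. Stx11 and Syt4 remain high in the sciatic comparison.

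With NAC at the injured nerve, the same comparison with Sham_Saline gave 3 calls of 57, against 3.32% of all genes (2.47% higher, 0.846% lower). Both sciatic comparisons use the same 3 Sham_Saline samples, so they are not independent. Stx11 had 10.6, 12.4 and 12.2 CPM in SNA_NAC and rose 2.00-fold over Sham_Saline (log2 fold change 1.00, SE 0.13, interval 0.72 to 1.28, edgeR adjusted p = 0.000292). Syt4 had 821, 989 and 971 CPM and rose 1.93-fold (0.95, SE 0.16, interval 0.61 to 1.29, edgeR adjusted p = 0.00270).

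Syt7 had 129, 118 and 127 CPM and fell by 0.41 on the log2 scale (SE 0.11, interval -0.64 to -0.18). The call was just inside the threshold at an edgeR adjusted p of 0.0480. It passed by DESeq2 (-0.43, adjusted p = 0.00627) and with the GC and length offsets (-0.28, edgeR adjusted p = 0.00522). With at least 10 counts required in every sample it did not pass. A term for the replicate block raised the adjusted p to 0.0777, and the gene passed in only 1 of the 6 fits that leave out 1 sample (the one without Sham_Saline replicate 1), where the adjusted p ranged from 0.0235 to 0.224. With the offsets Syt12 was called as well (0.55, edgeR adjusted p = 0.00247). Of the 57 genes 27 were higher and 30 lower, and 8 did not overlap (14.0%, against 21.2% of all genes). An unadjusted p under 0.05 was found for 18 (31.6% against 27.6%). Without Sham_Saline replicate 1, 22 of the 57 passed, with 37.3% of all genes, and with only the 6 samples compared 0 passed, with 0.433% of all genes.

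Set directly against SNA_Saline, SNA_NAC gave 0 calls by edgeR among the 57, as among all genes (0%), and 0 by DESeq2 and by limma on FPKM. The intervals for the 3 injury-responsive members were -0.22 to 0.34 for Stx11, -0.28 to 0.39 for Syt4 and -0.14 to 0.32 for Syt7, around differences of 0.06, 0.05 and 0.09. Such intervals allow a change of up to about the sizes at their ends and do not show that NAC was without effect. At an unadjusted p under 0.05 there were 3 members (5.26%, against 2% of all genes), all at an adjusted p of 1.

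These were Vamp8, Stx8 and Syt17. Vamp8, a SNARE of late endosomes and of secretion outside neurons, had 27.2, 21.6 and 27.7 CPM in SNA_Saline and 20.01, 17.8 and 18.9 in SNA_NAC, without overlap (log2 difference -0.43, SE 0.18, interval -0.81 to -0.05). Stx8, its partner in late endosome fusion, had 42.2, 41.1 and 43.5 against 37.5, 35.1 and 35.1, also without overlap (-0.23, SE 0.11). Syt17 differed by 0.99 (SE 0.46) at levels below 1 CPM. In all, 10 of the 57 did not overlap (17.5%, against 14.9% of all genes), 8 of them higher with NAC.

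Hydrogen peroxide at the uninjured nerve gave 0 calls by edgeR among the 57 against Sham_Saline (0% of all genes), with 0 members at an unadjusted p under 0.05 against 9.15% of all genes, and 0 by DESeq2 and limma. No member separated the groups, against 5.43% of all genes, and 29 were higher and 28 lower. Stx11 had 6.21, 5.48 and 6.99 CPM (log2 difference 0.07, interval -0.23 to 0.37), Syt4 621, 495 and 616 (0.26, interval -0.07 to 0.60) and Syt7 145, 173 and 127 (-0.16, interval -0.39 to 0.07). For Stx11 the whole interval lies under that of the sciatic injury (0.65 to 1.23); the difference between these effects was not tested. The smallest unadjusted p belonged to Vamp4, with 237, 189 and 274 CPM (0.28, interval -0.02 to 0.57, adjusted p = 0.449 by edgeR). The peroxide samples differed among themselves in GC slope, with replicate 3 at the low end, and that replicate was lowest for GC-rich members such as Cplx1 (895, 981 and 602 CPM), Stx1a (18.8, 24.99 and 8.90) and Rab3a (223, 275 and 173).

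Dorsal column injury against laminectomy also gave 0 calls among the 57 by edgeR, as among all genes (0%), and 0 by DESeq2 and limma, with 3 members at an unadjusted p under 0.05 (5.26%, against 5.04% of all genes). Stx11 was the member with the smallest p. It had 5.28, 6.72 and 5.74 CPM in LAM and 4.26, 4.35 and 4.03 in DCA, so every DCA sample lay below every LAM sample (log2 difference -0.50, SE 0.14, interval -0.79 to -0.20, edgeR adjusted p = 0.624). Next came Snap23, with 13.1, 14.9 and 13.7 CPM against 11.6, 11.7 and 9.35 (-0.36, edgeR adjusted p = 0.624), and Stx2, a plasma membrane syntaxin, with 75.5, 82.0 and 76.5 against 89.6, 86.1 and 101 (0.24, edgeR adjusted p = 0.624). Syt4 had 583, 513 and 536 CPM in LAM and 518, 559 and 383 in DCA, and Syt7 143, 143 and 146 against 151, 164 and 173. There were 18 members without overlap (31.6%, against 21.7% of all genes), 11 of them higher in DCA. The relation to GC had the opposite sign here, with r = 0.66 over the members, and -0.05 with the offsets.

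The peripheral and central responses differed in 3 members by a direct test of the difference between the log2 changes, against 1.61% of all genes (1.23% higher, 0.388% lower), and 20 had an unadjusted p under 0.05 (35.1% against 31.4%). Without Sham_Saline replicate 1, 17 members passed, with 29.2% of all genes. For Stx11 the difference was 1.44 (SE 0.20, interval 1.02 to 1.85, edgeR adjusted p = 0.00101), the sum of a rise after sciatic injury and a lower level after dorsal column injury, and within lanes it was 1.33, 1.58 and 1.28. Syt4 differed by 1.05 (SE 0.23, interval 0.58 to 1.53, edgeR adjusted p = 0.0307) and Syt7 by -0.68 (SE 0.15, interval -1.01 to -0.35, edgeR adjusted p = 0.0384).

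Stx11 passed this test in all 12 fits that leave out 1 sample, with an adjusted p from 0.00146 to 0.00576. Syt4 and Syt7 each passed in 4 of 12: both were lost without Sham_Saline replicate 2, SNA_Saline replicate 1 or 2, any 1 of the LAM samples, or DCA replicate 3, and Syt4 also without Sham_Saline replicate 3 and Syt7 without DCA replicate 2, with an adjusted p of up to 0.1004 for Syt4 and 0.125 for Syt7. With the replicate block Syt7 had an adjusted p of 0.0708 and Syt4 of 0.0479. With the GC and length offsets the 3 differences were 1.22, 0.58 and -0.30, all past the threshold among 5.25% of all genes. With offsets and block together Syt7 did not pass (-0.30, adjusted p = 0.0581), and with only the 4 groups compared in the fit Syt4 did not (1.05, adjusted p = 0.0557). The next members by p, none of them past it, were Vamp3 (0.64) and Cplx2 (-0.69), both at an edgeR adjusted p of 0.0824, Syt3 (-1.47, 0.0837), Stx12 (0.53, 0.0872) and Rab3a (-0.88, 0.0900).

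**Figure D5:**
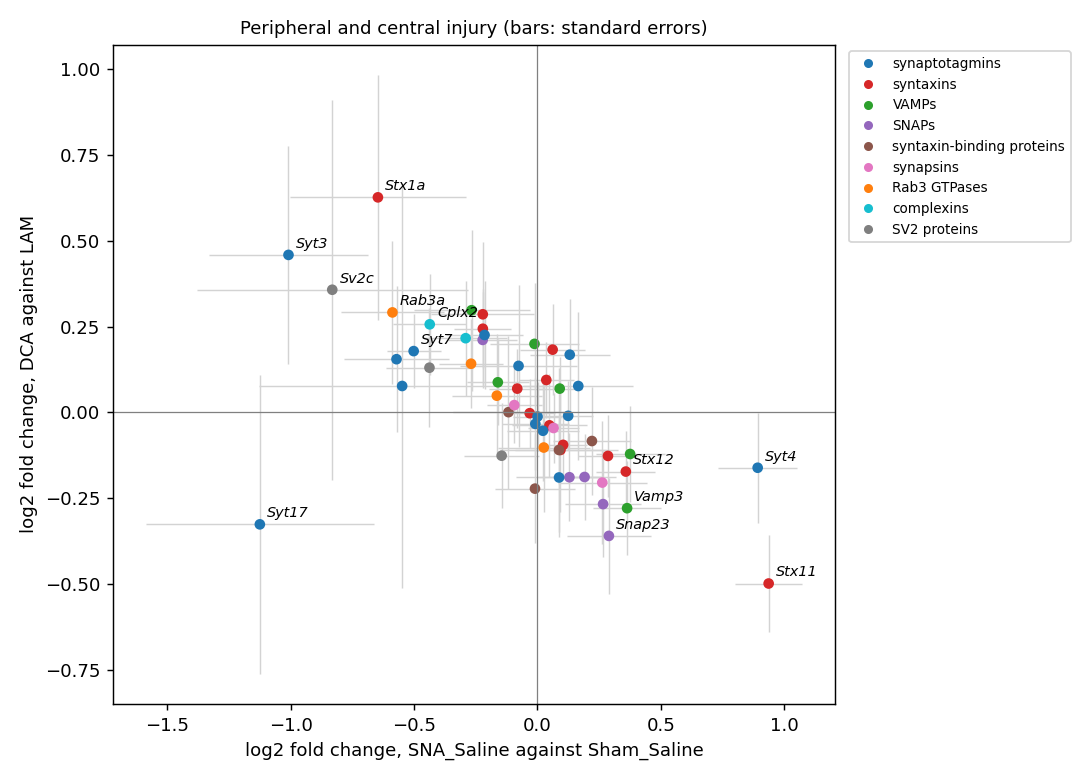
Log2 fold change of 55 of the 57 genes after sciatic injury (SNA_Saline against Sham_Saline, horizontal) and after dorsal column injury (DCA against LAM, vertical), with bars of 1 SE. Stx11 and Syt4 stand at the right, at 0.94 and 0.89 after sciatic injury, and below 0 on the vertical axis at -0.50 and -0.16.

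Between the surgical controls, Sham_Saline and LAM, 0 of 57 passed by edgeR (0.0699% of all genes; 0.0509% higher, 0.0191% lower). Without Sham_Saline replicate 1, 16 passed, with 31.8% of all genes. There were 12 members with an unadjusted p under 0.05 (21.1%, against 30.3% of all genes), 9 higher in Sham_Saline and 3 lower, and 17 without overlap (29.8%, against 30.6% of all genes). Stx1a had 9.21, 16.4 and 14.0 CPM in LAM and was 1.10 higher on the log2 scale in Sham_Saline (SE 0.36, edgeR adjusted p = 0.104). Snap25 had 2801, 2497 and 2650 CPM in LAM, above every Sham_Saline sample (log2 difference -0.39, SE 0.13, edgeR adjusted p = 0.104). DESeq2 called both, at adjusted p of 0.0416 and 0.0433, among 8.21% of all genes. Over the members the relation to GC had r = 0.59, and with the offsets the Snap25 difference was 0.01. Syt12 had 9.32, 10.9 and 12.4 CPM in LAM against 12.8 to 17.8 in Sham_Saline (0.47, edgeR adjusted p = 0.105). Stx11 differed by -0.02 and Syt4 by -0.18. Syt7 was 0.21 higher in Sham_Saline (interval -0.02 to 0.44, edgeR adjusted p = 0.198), and every Sham_Saline sample (152 to 176 CPM) lay above every LAM sample (143 to 146).

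Other genes of vesicle release, 91 listed by function and 87 in the table, gave 2 calls after sciatic injury (2.73% of all genes): 1 rose and 1 fell, with 32 higher and 55 lower and a median of -0.09. Sytl2, a synaptotagmin-like effector of Rab27 that tethers secretory granules, had 204, 172 and 190 CPM in Sham_Saline and 296, 322 and 258 in SNA_Saline, and rose (log2 fold change 0.63, SE 0.10, edgeR adjusted p = 0.00176). With NAC it stood 0.62 above Sham_Saline (adjusted p = 0.00197). Exoc3l, related to a subunit of the exocyst, had 3.53, 5.77 and 2.85 CPM against 1.32, 1.30 and 2.07. It fell by 1.37 on the log2 scale (SE 0.28, edgeR adjusted p = 0.0120). Its highest value was in Sham_Saline replicate 2, the library with the highest GC slope. For both genes the sciatic response also differed from the dorsal column response. The difference was 0.61 for Sytl2 (edgeR adjusted p = 0.0413) and -1.82 for Exoc3l (adjusted p = 0.0296). All values for this list are from the one fit of 18 samples, without the GC and length offsets.

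The 16 dense-core vesicle genes in the table split into 8 higher and 8 lower with 1 called (Sytl2), against 2.73% of all genes. The peptide-processing enzyme Pcsk1 was next (0.62, edgeR adjusted p = 0.0583). Among the 27 genes of fusion and priming, 7 were higher and 20 lower after sciatic injury with 0 called by edgeR and 7 at an unadjusted p under 0.05 (25.9%, against 22.5% of all genes), led by Rph3a, a Rab3 effector (-0.45, adjusted p = 0.0817), and Ppfia4, a liprin of the active zone (-0.70, adjusted p = 0.0871). In SNA_NAC against SNA_Saline 23 of those 27 were higher, 13 of them without overlap between groups (48.1%, against 14.9% of all genes), but 0 were called by edgeR and 0 had an unadjusted p under 0.05 (2% of all genes). Against Sham_Saline, SNA_NAC gave 5 calls on the list of 87 (3.32% of all genes), with Sytl2, Pcsk1 (0.78, adjusted p = 0.0156), Exoc6b (0.58, 0.0376) and the active zone protein Erc2 (0.69, 0.0411) higher and Ppfia4 (-0.79, 0.0468) lower.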

How the data were processed

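The deposited counts are whole reads per gene made by the authors; the submitters' processing notes name TopHat2 2.0.12, Bowtie2 2.2.3, SAMtools 0.1.19, HTSeq 0.6.0, edgeR 3.8.6 and build mm10. The deposited FPKM values were also made by the authors, and how is not given in the sources used here. The members and all lists were chosen with earlier results of these data known.

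The main test was the quasi-likelihood F test of edgeR 4.0.16 (R 4.3.3; TMM scaling, genes kept by filterByExpr), in one fit of 18 samples and 6 groups, for 7 comparisons, with Benjamini-Hochberg adjustment over 15730 genes and a threshold of 0.05. The script was tested on simulated data. SE is the log2 fold change over the square root of F, and intervals are 95%, from t with a median of 16.4 degrees of freedom. CPM values are TMM-scaled, with prior count 2 on the log scale. GC share and length come from the longest GENCODE M21 transcript, and offsets are natural splines with 5 degrees of freedom. Depth was 6472476 to 42435331 counts per library, which limits genes below 1 CPM most. Named genes were those past the threshold in any comparison, the 8 with the smallest p after sciatic injury and the 4 in each other comparison, the highest of each family in FPKM, and 17 known release genes; 32 resulted, of which 2 are not reported here or shown in the figures, though all counts include them. From the further list of release genes, at most the 6 with the smallest p after sciatic injury were named by rule; Erc2 and Exoc6b were named after their values were seen.

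Replicate numbers equal the sequencing lane in the labels. Same-numbered samples did not deviate together throughout (correlations of their deviations from -0.647 to 0.555). No replicates were duplicates (lowest chi-square per degree of freedom 3.98). Alternatives were DESeq2 1.42.0, limma 3.58.1 on log2(FPKM + 1) and log2(FPKM + 0.1), other filters, a threshold of 0.1, the replicate block, the offsets, only the groups compared, and leaving out each sample.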

Additional observations from a re-analysis of the deposited data

Results flagged for a closer look

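Of the 57 genes, 3 responded differently to sciatic and to dorsal column injury, against 1.61% of all genes. The test was that of the difference between their log2 changes (edgeR quasi-likelihood test, Benjamini-Hochberg adjustment over all genes). Stx11 differed by 1.44 (adjusted p = 0.00101), with the sciatic response higher in each of the 3 lanes. Syt4 differed by 1.05 (adjusted p = 0.0307), again higher in 3 of 3 lanes, and Syt7 by -0.68 (adjusted p = 0.0384), lower in 3 of 3. The lane differences come from the same values as the test. Only Stx11 kept its call in every fit that leaves out 1 sample. Syt4 and Syt7 each lost it in most of these fits, and Syt7 also with the replicate block. Groups of 3 samples are too small to test for a single sample that stands apart.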

How the results depend on the processing

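Fitting only the groups compared left 0 of 57 genes called in SNA_Saline and in SNA_NAC against Sham_Saline (Stx11 0.93, adjusted p = 0.0989), where few samples set the spread and 0.422% and 0.433% of all genes passed. With GC and length offsets 6 passed after sciatic injury (3 higher, 3 lower; 2 and 1 without; 7.43% of all genes), and 6 with offsets and replicate block together (6.37%). After sciatic injury DESeq2 called Syt3 besides the genes of the main test. It called 2 between Sham_Saline and LAM (8.21% of all genes) and 8 in the difference between injuries (12.4%). A threshold of 0.1 gave 10 in that difference (15.2%). The replicate block alone changed no call but that of Syt7, which was lost in SNA_NAC against Sham_Saline and in the difference. Leaving out 1 sample gave 2 to 7 calls for SNA_Saline against Sham_Saline (1.11% to 16.2% of all genes) and 2 to 22 for SNA_NAC against Sham_Saline (1.37% to 37.3%). It gave 0 to 16 for Sham_Saline against LAM (0.0254% to 31.8%) and 1 to 17 for the difference (0.350% to 29.2%). The upper ends came without Sham_Saline replicate 1, when 16.2%, 37.3%, 31.8% and 29.2% of all genes passed; the cause was not tested.

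Of the named genes, only some with no call changed direction after sciatic injury. Syt11 was -0.011 by DESeq2, -0.019 with a minimum of 10 counts, -0.0073 with only the groups compared, -0.017 with offsets, -0.014 with offsets and block, and -0.033 by limma at both pseudocounts. With offsets, and with offsets and block, Vamp8 was 0.0014 and 0.0067, Snap23 -0.022 and -0.021, Snap25 -0.16 and -0.16, and Syt1 -0.10 and -0.10. Leaving out 1 sample turned 6 of the named genes, with the lowest and highest values being -0.087 and 0.17 for Stx8, -0.27 and 0.10 for Sv2b, -0.22 and 0.12 for Vamp8, -0.27 and 0.12 for Syt13, -0.14 and 0.20 for Syt1, and -0.048 and 0.038 for Syt11. Of the remaining values for named genes, 435 kept direction and side of the threshold, 10 newly passed it and 6 no longer did. The 435 include the fit with no filter, which equals the main fit because the filter removed no gene. Depth limits Syt17 and Syt14 most, with fewer than 10 counts in some library.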

Other observations

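The deposited FPKM table holds 6 further genes whose symbols match the families but which are not in the table of counts. Cplx4, Syt8 and Stx19 reached at most 0.0871, 0.0430 and 0.0491 FPKM over the 18 samples. Cplx3, a complexin of retinal ribbon synapses, was 0.0708 to 0.259 FPKM in LAM and 0.0169 to 0.0295 in Sham_Saline, values too low to compare. Syt10 ranged from 0.0544 to 0.233 FPKM. A Vamp7 transcript, of the SNARE that serves membrane addition in growing neurites, was well expressed at 26.7 to 42.8 FPKM in Sham_Saline, 35.4 to 46.0 in SNA_Saline and 42.1 to 51.3 in LAM, with overlap between Sham_Saline and SNA_Saline.

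The members most like Snap25 over the 18 samples, by Pearson's r of log2 CPM, were Stx16, a syntaxin of the Golgi (r = 0.91), and Stxbp6 (r = 0.80). The samples share their GC and depth differences, so these are descriptions with no test. Syt4, by the same measure, had r = 0.23 and Stx11 r = -0.05 with Snap25.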
